A study of Mus musculus with 2 samples.

Results

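The 10 genes described here encode RNA-binding proteins known to steer splicing in muscle: Rbm24, Rbm20, Rbm38, Mbnl1, Mbnl2, Mbnl3, Celf1, Celf2, Rbfox2 and Ptbp1. They were chosen by name with the 2 count columns already known, so their ratios describe these libraries and are not tested. All 10 were found by symbol among the 16190 genes of the count table. Total RNA of satellite cells, the stem cells of skeletal muscle, was sequenced from tibialis anterior of C57BL/6 mice. 1 library is labelled Cipc-scko (here Cipc scko; titled Cipc-/-), a deletion of Cipc in satellite cells, and 1 Cipc-flox/flox (here Cipc flox/flox; titled Cipc+/+), which carries the floxed alleles. The Cre driver, ages, sexes, number of mice per library and hour of sampling are not known from the labels. Cipc encodes a repressor of the clock transcription factors CLOCK and BMAL1.

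Muscle genes carry many exons that are joined into the mature RNA in some stages of muscle life and skipped in others. RBM24, RBM20, MBNL, CELF, RBFOX and PTBP proteins bind short motifs in or near such exons and favour or block their use. MBNL and CELF proteins act in opposite directions on many exons, and loss of free MBNL is known from myotonic dystrophy. The deposited values are counts per gene, so they give the level of each regulator and of its target transcripts, and say nothing of which exons were used.

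The libraries held 16830168 counts for Cipc scko and 16145870 for Cipc flox/flox. Cipc itself stood at 37.0 CPM in Cipc scko cells and 113 CPM in Cipc flox/flox cells (CPM, counts scaled by TMM to library size), a log2 ratio (Cipc scko CPM over that of Cipc flox/flox) of -1.61. With 1 library per genotype no difference has a replicate check, and every interval given is a 95% counting interval that leaves out variation between animals. Satellite cell markers were read in both libraries: 7 of 8 were in the table, with 1 higher (Pax7), 1 lower (Cd34) and 5 under 2-fold. Their summed levels of 2319 CPM in Cipc scko cells and 1857.4 CPM in Cipc flox/flox cells came mostly from Itga7. Cd34, a surface marker of these cells, was 116.3-fold lower, with 3 counts in Cipc scko cells, against 427 in Cipc flox/flox cells. Pax7, which defines these cells, was read in 998 counts in Cipc scko cells, against 43 in Cipc flox/flox cells. Myf5, another satellite cell gene, was near equal (log2 ratio 0.10, -0.02 to 0.23), Myod1, of activated cells, was higher (3.40), and the proliferation marker Mki67 was lower (-1.14). The 6 markers of differentiating myocytes summed to 15386.1 CPM in Cipc scko cells and 33.5 CPM in Cipc flox/flox cells, and all 6 were at least 2-fold higher in Cipc scko cells. Among other cell types, the called markers of a list often went both ways. Of the 3 pericyte and smooth muscle markers in the table, of 6, Acta2 and Pdgfrb were higher and Cspg4 was lower, with 7 counts in Cipc scko cells, against 491 in Cipc flox/flox cells. Their sum was 12698.2 CPM in Cipc scko cells, of which Acta2 gave 12432.0 CPM, against 626.1 CPM in Cipc flox/flox cells. Of 4 fibro-adipogenic markers in the table, of 5, Col1a1 was higher, Pdgfra and Dcn were lower (12.2-fold and 90.9-fold), and Ly6a lay under 2-fold. Their sum, 853.9 CPM in Cipc scko cells and 591.8 CPM in Cipc flox/flox cells, was thus carried by Col1a1 and Ly6a. Of 3 macrophage markers, of 5, Csf1r was higher and Cd68 and Cd14 were lower, with a sum of 5.61 CPM in Cipc scko cells, against 46.7 CPM in Cipc flox/flox cells. Schwann cell markers (3 of 5) summed to 75.4 CPM in Cipc scko cells, against 19.1 CPM in Cipc flox/flox cells, nearly all from Erbb3, the only one past the filter. Endothelial markers (4 of 5) summed to 8.22 CPM in Cipc scko cells, against 0.886 CPM in Cipc flox/flox cells. Kdr, the only one past the filter, gave 6.98 CPM of the sum in Cipc scko cells. Tek was at 0 in Cipc scko cells and Pecam1 at 0 in Cipc flox/flox cells. Neuron markers (3 of 5, none past the filter) summed to 0.374 CPM in Cipc scko cells, against 0.945 CPM in Cipc flox/flox cells, with Syt1 at 0 in Cipc scko cells. The part of these cell types in the values of the 10 genes was not tested. In RNA from a whole cell preparation, more or fewer cells of a type and more or less RNA per cell cannot be told apart.

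Of the 10 genes, 2 were at least 2-fold higher in Cipc scko cells (Rbm24 and Rbm38) and 3 at least 2-fold lower (Mbnl3, Mbnl1 and Ptbp1), each with an interval that left out equality. The other 5 lay under 2-fold. Over all 12874 genes past the filter on low counts, 21.2% were higher and 15.9% lower by the same rule, or 37.2% together, so differences of this size were common in these libraries. Past a 4-fold limit stood Rbm24 among the higher genes, against 12.5% of all genes, and Mbnl1 and Mbnl3 among the lower ones, against 6.68% of all genes. The median log2 ratio of the 10 was -0.23, against 0.01 for all genes past the filter. All 10 passed the filter, but Rbm24 and Mbnl3 did so through 1 library only, Rbm24 through Cipc scko and Mbnl3 through Cipc flox/flox, and so could only show a difference.

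**Figure D1:**
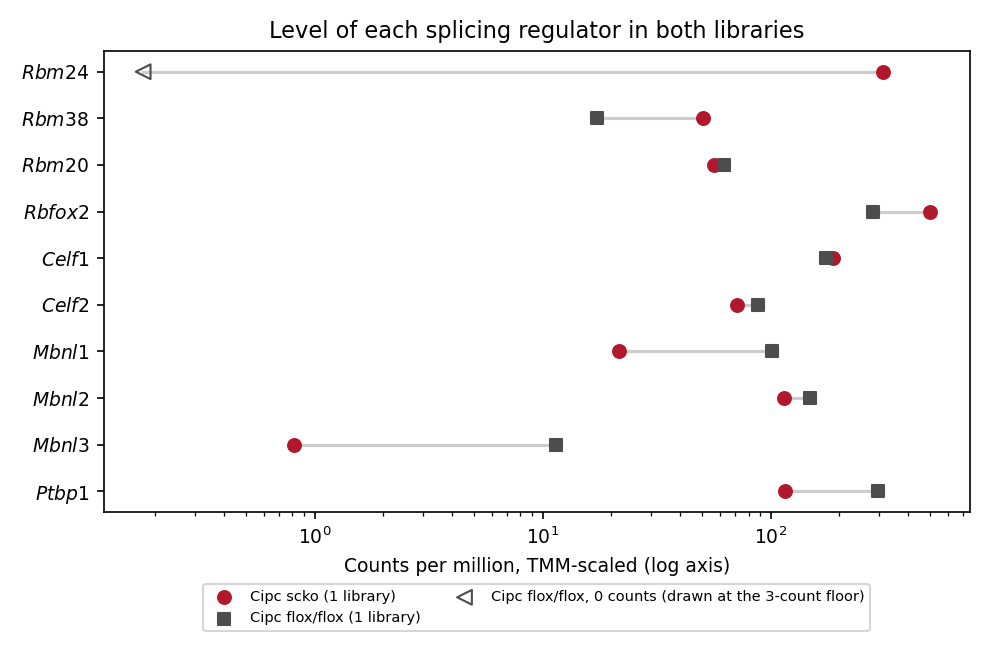
TMM-scaled CPM (log axis) of the 10 genes in the Cipc scko library (circles) and the Cipc flox/flox library (squares), 1 library each. Rbm24, at 311.5 CPM in Cipc scko cells, had 0 counts in Cipc flox/flox cells and is drawn there at the floor of 3 counts (0.177 CPM). Mbnl3 and Mbnl1 show the widest gaps in the other direction.

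The stretches of DNA just before the start sites of the 5 genes past 2-fold are shown because CLOCK and BMAL1, the factors that CIPC represses, bind the E-box CACGTG, and myogenic factors such as MYOD and myogenin bind E-boxes with a preference for CAGCTG. Both are cases of the general E-box CANNTG, all 3 motifs read the same on both strands, and capitals mark every CANNTG. Each run covers 250 bases before a start site, 5′ to 3′ on the strand of the gene, from RefSeq on GRCm38.p6. The Mbnl1 run is the window of its 2 that holds CACGTG.
Rbm24 (chr13:46418050-46418299, plus strand): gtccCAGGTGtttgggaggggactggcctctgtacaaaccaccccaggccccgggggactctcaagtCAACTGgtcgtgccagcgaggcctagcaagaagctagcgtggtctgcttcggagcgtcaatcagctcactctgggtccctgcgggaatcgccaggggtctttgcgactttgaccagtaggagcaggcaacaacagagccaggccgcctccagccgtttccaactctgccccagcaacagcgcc
Rbm38 (chr2:173021652-173021901, plus strand): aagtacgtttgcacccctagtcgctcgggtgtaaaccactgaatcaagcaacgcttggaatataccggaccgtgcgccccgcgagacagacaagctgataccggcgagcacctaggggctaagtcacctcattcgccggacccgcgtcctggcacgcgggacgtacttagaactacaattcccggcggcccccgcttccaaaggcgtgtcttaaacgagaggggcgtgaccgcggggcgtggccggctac
Mbnl1 (chr3:60472580-60472829, plus strand): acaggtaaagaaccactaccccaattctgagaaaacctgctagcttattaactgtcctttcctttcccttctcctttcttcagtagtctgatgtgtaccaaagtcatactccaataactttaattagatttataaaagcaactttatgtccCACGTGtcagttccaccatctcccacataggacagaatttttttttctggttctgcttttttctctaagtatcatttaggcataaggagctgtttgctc
Mbnl3 (chrX:51205991-51206240, minus strand): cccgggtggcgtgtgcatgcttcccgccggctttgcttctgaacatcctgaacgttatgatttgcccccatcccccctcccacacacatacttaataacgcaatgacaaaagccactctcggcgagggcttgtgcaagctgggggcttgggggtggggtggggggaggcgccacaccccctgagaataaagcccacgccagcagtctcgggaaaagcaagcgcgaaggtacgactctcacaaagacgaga
Ptbp1 (chr10:79854182-79854431, plus strand): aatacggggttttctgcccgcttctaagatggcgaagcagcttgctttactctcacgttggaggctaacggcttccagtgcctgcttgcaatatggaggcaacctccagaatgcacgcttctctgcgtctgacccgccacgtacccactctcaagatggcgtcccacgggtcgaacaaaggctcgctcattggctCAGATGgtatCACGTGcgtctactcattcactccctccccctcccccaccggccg

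RefSeq gave 13 such windows for 8 of the 10 genes. The names without a window were Rbm20 and Rbfox2. The clock E-box CACGTG occurred in 2 of the 13, and 6.02% of the 32817 promoter windows of all genes hold it. These 2 are the Ptbp1 window, where its first base lies 45 bases before the start, and the Mbnl1 window shown, at 99 bases. Both genes were lower in Cipc scko cells, and a link between these letters and the levels was not tested. The other Mbnl1 window held no CANNTG. The letters CAGCTG occurred in 0 of the 13 windows, against 13.0% of all windows. Some form of CANNTG stood in 7 of the 13, against 66.2% of all windows. Most of the 7 were windows of Celf2, and the pair of these that overlaps holds the same CACTTG and CAAGTG. The Rbm24 window held 2, at 246 and 183 bases before the RefSeq start. This window ends at 46418299, before the GENCODE gene start of 46418434. The bases just after it were found in no GENCODE transcript of Rbm24. The Rbm38 and Mbnl3 windows shown held none of these letters. A match of letters is a description and does not show that a factor was bound.

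The muscle-enriched RNA-binding protein RBM24 and its close relative RBM38 each carry a single RNA recognition motif, and both are known to bind messenger RNAs as well as to act on splicing. Rbm24 (chromosome 13, 46418434 to 46431095 on GRCm38) was read in 5001 counts in Cipc scko cells, against 0 in Cipc flox/flox cells. Against the floor of 3 counts in Cipc flox/flox cells, its 311.5 CPM in Cipc scko cells was 1757.5-fold higher, a log2 ratio of 10.78. That floor is a convention, and the counting interval began lower, at a log2 ratio of 10.48. Rbm24 was 1 of the 7 genes, among 12874, with the highest fitted ratios. Rbm38 (chromosome 2, 173020498 to 173034734), known as a target of p53, had 807 counts in Cipc scko cells, against 294 in Cipc flox/flox cells. Its level of 50.3 CPM in Cipc scko cells and 17.4 CPM in Cipc flox/flox cells gave a log2 ratio of 1.53 (1.34 to 1.73), a 2.89-fold higher level. Both genes were thus higher in the same library, and the more abundant of the pair differed between the libraries. Rbm24 made up 83.6% of the CPM per kb of annotated exon of the pair in Cipc scko cells and 0% in Cipc flox/flox cells. Genes whose counts lay nearest to those of Rbm24 in both libraries were Psmb9, Fgfr4 and Fndc5, with 5222, 4780 and 4314 counts in Cipc scko cells, against 0 in Cipc flox/flox cells. They lay within 0.213 log2 units of it, and over 2 libraries this likeness is only one of counts.

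RBM20, the splicing repressor known best for titin in heart and skeletal muscle, was read at a near-equal level. Rbm20 (chromosome 19, 53677306 to 53867080) had 905 counts in Cipc scko cells, against 1060 in Cipc flox/flox cells, or 56.4 CPM in Cipc scko cells and 62.6 CPM in Cipc flox/flox cells. The log2 ratio was -0.15 (-0.28 to -0.02) and lay well under 2-fold.

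The 3 muscleblind-like genes encode zinc-finger proteins, of which MBNL1 is known to promote the adult splicing pattern of many muscle exons. The 3 genes were read at unequal ratios. Mbnl1 (chromosome 3, 60472830 to 60629750), which encodes the main muscleblind protein of adult muscle, had 348 counts in Cipc scko cells, against 1722 in Cipc flox/flox cells. This is 21.7 CPM in Cipc scko cells and 101.7 CPM in Cipc flox/flox cells, a log2 ratio of -2.23 (-2.40 to -2.06) and a 4.69-fold lower level. Mbnl3 (chromosome X, 51117269 to 51206532), known in mouse as a muscleblind gene of immature muscle cells, had 13 counts in Cipc scko cells, against 194 in Cipc flox/flox cells. At 0.810 CPM in Cipc scko cells and 11.5 CPM in Cipc flox/flox cells its log2 ratio was -3.77 (-4.76 to -3.02), the lowest of the 10 genes. The wide interval comes from its 13 counts in Cipc scko cells. On the log2(FPKM + 1) scale, which shrinks the ratios of low genes, Mbnl3 stood at -0.92, under 2-fold. Mbnl2 (chromosome 14, 120275669 to 120431697) had 1842 counts in Cipc scko cells, against 2529 in Cipc flox/flox cells. Its log2 ratio of -0.38 (-0.47 to -0.29) stayed under 2-fold.

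Counts of the 3 muscleblind-like genes together came to 137.2 CPM in Cipc scko cells and 262.6 CPM in Cipc flox/flox cells, a log2 ratio of -0.94 (-1.01 to -0.86). Per kb of annotated exon, Mbnl2 held 88.4% of the family's CPM in Cipc scko cells and 64.9% in Cipc flox/flox cells. Mbnl1 held 10.7% in Cipc scko cells and 28.3% in Cipc flox/flox cells. Mbnl2 thus held the larger part in both libraries. Mbnl3 is X-linked, and the libraries also differed in Xist, which coats the inactive X chromosome, with 4 counts in Cipc scko cells, against 3898 in Cipc flox/flox cells. The 418 X-linked genes past the filter had a median log2 ratio of -0.12. The 6 Y-linked genes in the table had 1130 counts in Cipc scko cells, against 34 in Cipc flox/flox cells. The differences in Xist and in Y-linked counts run with genotype. The effects of sex and genotype cannot be told apart, for Mbnl3 or for any other gene described here. Nearest to Mbnl3 in both libraries were Sema6b, with 13 counts in Cipc scko cells, against 190 in Cipc flox/flox cells, Dusp22, with 14 in Cipc scko cells and 174 in Cipc flox/flox cells, and the transcript 2510016D11Rik, with 15 in Cipc scko cells and 192 in Cipc flox/flox cells.

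CELF1 and CELF2, which oppose MBNL proteins on many exons and favour the fetal pattern, both lay under 2-fold. Celf1 (chromosome 2, 90940382 to 91019497) had 2999 counts in Cipc scko cells, against 2967 in Cipc flox/flox cells. Its log2 ratio of 0.09 (0.02 to 0.17) changed sign, to -0.04, when libraries were scaled by their totals. Celf2 (chromosome 2, 6539694 to 7509563) had 1138 counts in Cipc scko cells, against 1486 in Cipc flox/flox cells, a log2 ratio of -0.31 (-0.42 to -0.20). Summed, both genes stood at 257.7 CPM in Cipc scko cells and 263.1 CPM in Cipc flox/flox cells, a log2 ratio of -0.03 (-0.09 to 0.03). These intervals cover counting error only, so the summed MBNL and CELF ratios were not tested against each other. Variation between animals was not measured.

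RBFOX2, which binds UGCAUG next to alternative exons and is known to act in myoblast fusion, came closest to the 2-fold limit among the genes not past it. Rbfox2 (chromosome 15, 77078990 to 77307004) had 8056 counts in Cipc scko cells, against 4734 in Cipc flox/flox cells, or 501.8 CPM in Cipc scko cells and 279.7 CPM in Cipc flox/flox cells. The log2 ratio of 0.84 (0.79 to 0.90) is a 1.79-fold higher value. The 520 genes of chromosome 15 past the filter ran the other way, with a median log2 ratio of -0.68, 65 higher and 195 lower. Its relative Rbfox1, known from mature muscle, heart and brain, had 180 counts in Cipc scko cells, against 0 in Cipc flox/flox cells. Against the 3-count floor Rbfox1 was 63.3-fold higher, with a counting interval that began at a log2 ratio of 5.67. Rbfox2 made up 96.0% of the CPM per kb of both genes in Cipc scko cells.

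PTBP1, which represses many muscle and neuronal exons in cells that have not differentiated, was lower in Cipc scko cells. Ptbp1 (chromosome 10, 79854427 to 79864771) had 1859 counts in Cipc scko cells, against 4993 in Cipc flox/flox cells. This is 115.8 CPM in Cipc scko cells and 295.0 CPM in Cipc flox/flox cells, a log2 ratio of -1.35 (-1.43 to -1.27) and a 2.55-fold lower level. Its relatives differed less: Ptbp2 had a log2 ratio of -0.26 (-0.46 to -0.06) and Ptbp3 of -0.26 (-0.39 to -0.13). Ptbp1 made up 71.5% of the CPM per kb of the 3 PTBP genes in Cipc scko cells and 84.2% in Cipc flox/flox cells. The 623 genes past the filter on chromosome 10 had a median of -0.34, a smaller shift than that of Ptbp1. The median on the chromosomes of the members other than Rbfox2 and Ptbp1 lay between -0.12 and 0.13. Whether a shift of whole chromosomes bears on Ptbp1 or Rbfox2 was not tested. The exons of Ptbp1, 4740 bases in all, share 437 bases with Gm17134, 251 with Plppr3 and 295 with E130317F20Rik on the other strand, and whether counting used strand is not known from the labels. Plppr3 had 63 counts in Cipc scko cells, against 228 in Cipc flox/flox cells, and E130317F20Rik 85 in Cipc scko cells, against 37 in Cipc flox/flox cells, few beside those of Ptbp1. Gm17134 was not analysed here. Genes on the opposite strand also share exon bases with Rbm38 (227 with Gm14453 and 157 with Gm20490), with Mbnl2 (86 with Gm26679) and with Celf2 (1961 with the lincRNA Gm26565).

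**Figure D2:**
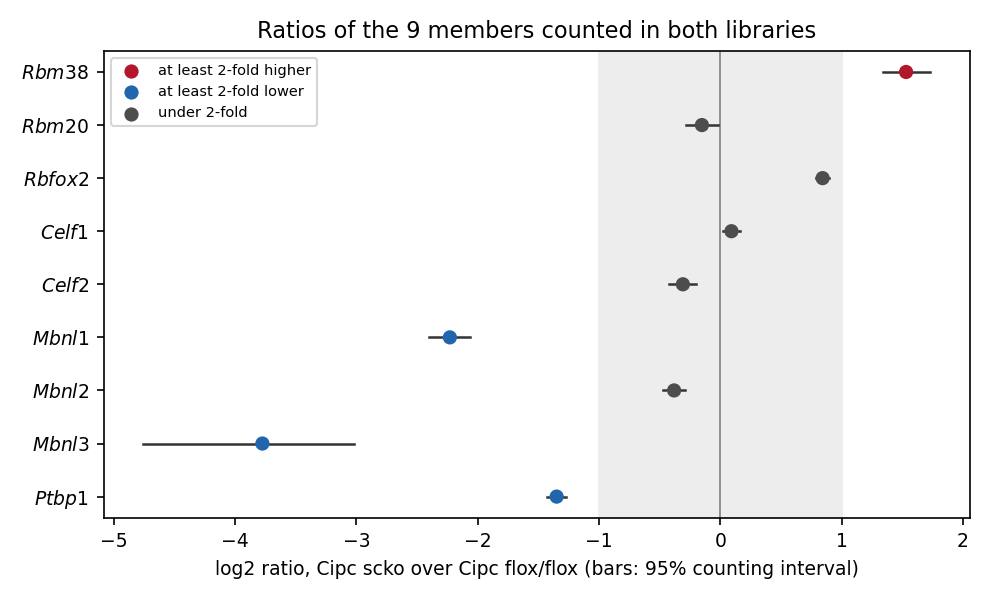
Log2 of Cipc scko CPM over Cipc flox/flox CPM for the 9 genes with counts in both libraries, with 95% counting intervals as bars and the range under 2-fold shaded. Rbm38 lies above the shaded range at 1.53, while Ptbp1, Mbnl1 and Mbnl3 lie below it at -1.35, -2.23 and -3.77. The intervals cover counting error only.

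To compare the genes with each other, levels were put on 2 scales per length: CPM per kilobase of annotated exon, from GENCODE vM21, and the deposited FPKM. On the first scale, the order in Cipc scko cells was Rbm24 (89.2 CPM per kb), Rbfox2 (61.6), Ptbp1 (24.4), Celf1 (22.1), Rbm38 (17.5), Mbnl2 (9.57), Rbm20 (8.30), Celf2 (2.74), Mbnl1 (1.16) and Mbnl3 (0.0926). In Cipc flox/flox it was Ptbp1 (62.2 CPM per kb), Rbfox2 (34.4), Celf1 (20.8), Mbnl2 (12.5), Rbm20 (9.22), Rbm38 (6.05), Mbnl1 (5.44), Celf2 (3.39), Mbnl3 (1.31) and Rbm24 (0). Rbm24 thus stood first in Cipc scko cells and last in Cipc flox/flox cells, and Ptbp1 stood behind Rbm24 and Rbfox2 in Cipc scko cells but led in Cipc flox/flox cells. With no replicates, the spread that would separate neighbours in these orders is unknown.

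The deposited FPKM gave another order for some genes. Mbnl2 ranked 3 in Cipc scko cells and 1 in Cipc flox/flox cells by FPKM (24.0 FPKM in Cipc scko cells and 34.4 FPKM in Cipc flox/flox cells), but 6 in Cipc scko cells and 4 in Cipc flox/flox cells by CPM per kb. The gene length implied by the deposited counts and FPKM was 4.55 kb for Mbnl2, whose annotated exons cover 11.99 kb. For Mbnl1 it was 45.0 kb, against 18.7 kb of annotated exon, and for Celf2 60.8 kb, against 25.9 kb. For Rbm38 it was 9.63 kb, against 2.87 kb, and for Celf1 28.1 kb, against 8.45 kb. In Cipc scko cells Rbm38 ranked 7 and Celf1 ranked 6 by FPKM, against 5 and 4 by CPM per kb. The source of these lengths is not stated in the labels or headers. The length used therefore bears on any statement of which family member is most abundant. Mbnl2 held 97.9% of the summed FPKM of the muscleblind-like genes in Cipc scko cells and 91.0% in Cipc flox/flox cells, both above its shares of CPM per kb. Rbm24 ranked 1 in Cipc scko cells on both scales, and there held 94.9% of the summed FPKM of Rbm24 and Rbm38.

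**Figure D3:**
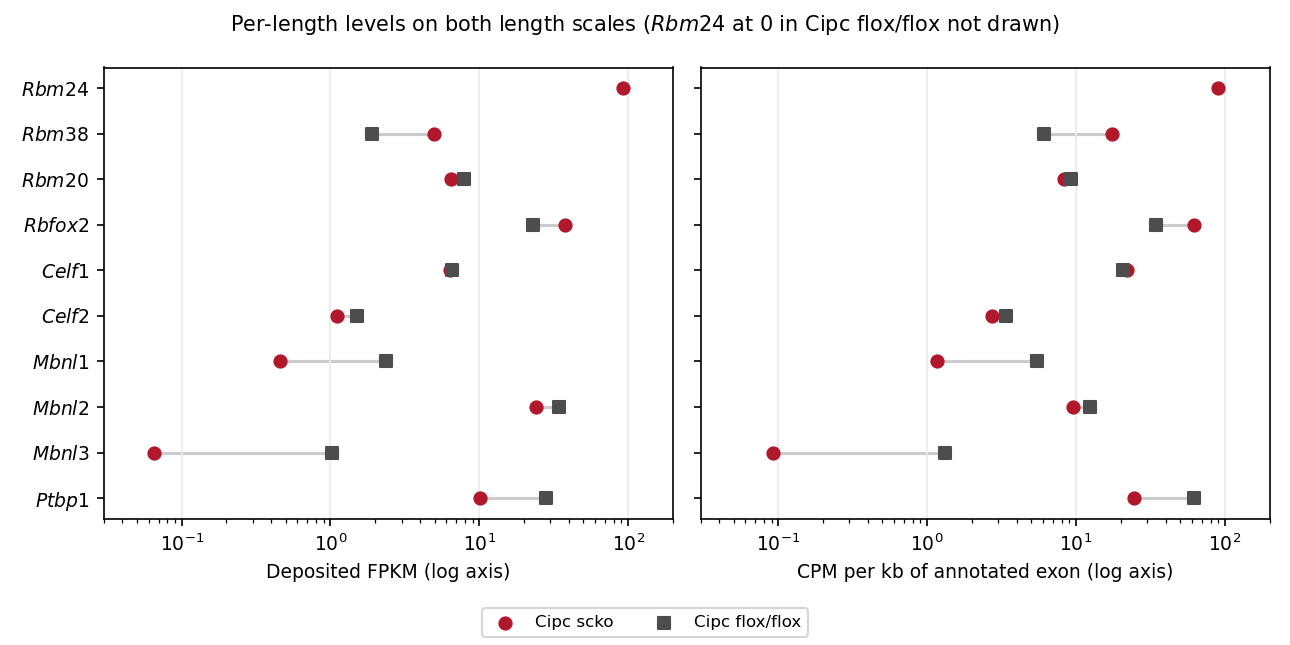
Per-length level of the 10 genes in the Cipc scko library (circles) and the Cipc flox/flox library (squares), as deposited FPKM (left) and as CPM per kb of annotated exon (right), both on log axes. Mbnl2 is the highest gene of Cipc flox/flox at 34.4 FPKM, but stands at 12.5 CPM per kb there, below Ptbp1, Rbfox2 and Celf1.

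Relatives of the 10 genes and other splicing factors show how far the differences ran through the splicing machinery. Of 8 other genes of the same families, 5 were in the table and past the filter: Rbfox1 was higher and Celf5 lower, with Celf5 at 9 counts in Cipc scko cells, against 30 in Cipc flox/flox cells. Celf3, Celf6 and Rbfox3 were not analysed here. Celf4, at 8.66 CPM in Cipc scko cells and 11.1 CPM in Cipc flox/flox cells, lay under 2-fold (log2 ratio -0.36). Of 18 other splicing regulators past the filter, a list that includes the kinase Srpk3, 2 were higher and 2 lower. Their median log2 ratio was -0.01, with a sign that depended on the scaling and filter. Srpk3, a muscle-enriched kinase that phosphorylates SR proteins, had 214 counts in Cipc scko cells, against 4 in Cipc flox/flox cells (log2 ratio 5.65, 4.44 to 7.71). Khdrbs3, a splicing regulator of the STAR family, stood at 74.6 CPM in Cipc scko cells and 24.6 CPM in Cipc flox/flox cells (1.60, 1.44 to 1.76). Rbpms, known as a splicing regulator of smooth and cardiac muscle, had 6 counts in Cipc scko cells, against 256 in Cipc flox/flox cells (-5.23, -6.80 to -4.20). Its relative Rbpms2 was lower as well, at 33.3 CPM in Cipc scko cells and 74.1 CPM in Cipc flox/flox cells (-1.15, -1.30 to -1.01). Rbfox1, Celf5, Srpk3 and Rbpms each passed the filter through a single library, and so could only show a difference.

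General splicing factors rarely reached 2-fold. Of 68 SR, hnRNP and core spliceosome genes, 1 was higher and 3 lower, against 21.2% and 15.9% of all genes past the filter. Genes of like level were not compared, and the all-gene set holds many genes of low counts. Of the 68, 49 had a ratio below 0. The median log2 ratio was -0.42 over 12 SR genes, -0.24 over 23 hnRNP genes and -0.34 over 33 core spliceosome genes. No SR gene reached 2-fold, and their ratios ran between -0.83 for Srsf10 and 0.74 for Srsf4. Among hnRNP genes Hnrnph3 was higher (24.2 CPM in Cipc scko cells and 11.1 CPM in Cipc flox/flox cells, log2 ratio 1.12), but under 2-fold with scaling by totals (0.99), which left 0 hnRNP genes higher. Upper quartile factors gave 2. Hnrnpm was lower, at 116.3 CPM in Cipc scko cells and 239.3 CPM in Cipc flox/flox cells, and so was Hnrnpa3, at 2.06 CPM in Cipc scko cells and 16.4 CPM in Cipc flox/flox cells. The spliceosome gene Sf3b4, of the U2 particle, was lower (-1.15, -1.26 to -1.04), and the highest ratio in that list was 0.34 for Sf3b5. Copies were searched only for the members and for the highest and lowest gene of each list of splicing factors. Among these, Hnrnpa3, Sf3b4 and Srsf10 have near-identical copies elsewhere in the genome, so their separate values are uncertain. The other SR, hnRNP and core spliceosome genes were not searched. None of the 10 members had such a copy.

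**Figure D4:**
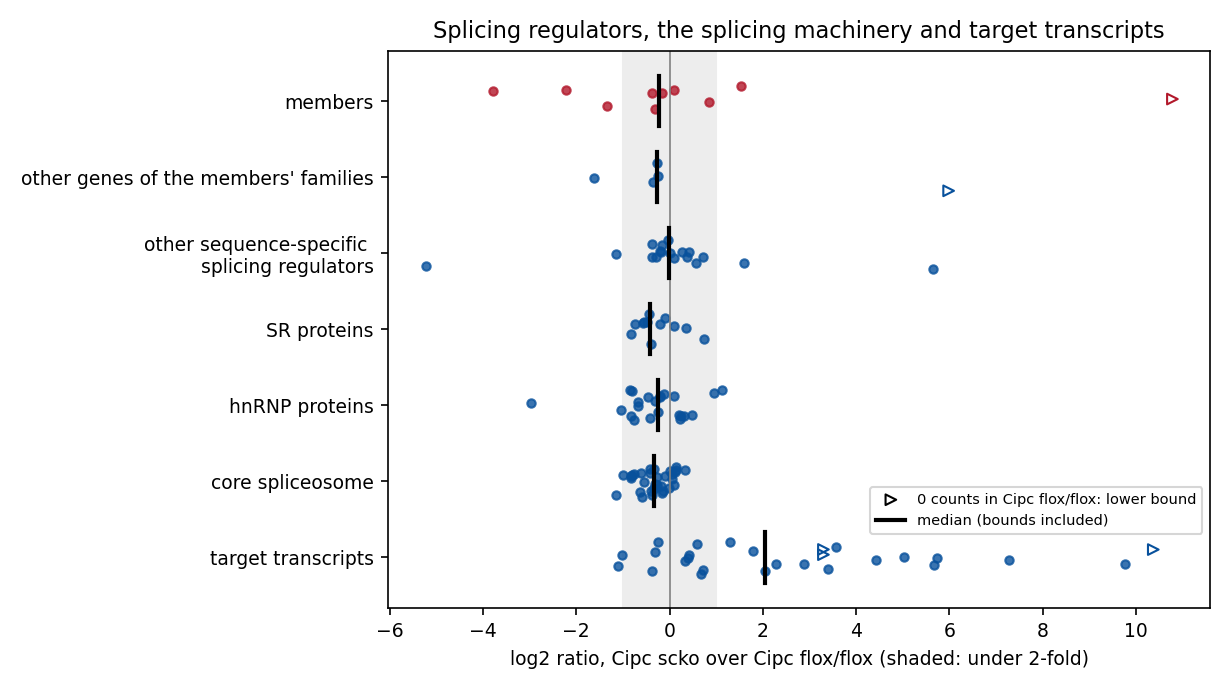
Log2 of Cipc scko CPM over Cipc flox/flox CPM for each gene past the filter in 7 gene groups, with the median as a black bar and the range under 2-fold shaded. Open triangles mark genes at 0 counts in Cipc flox/flox cells, drawn at their lower bound. Of the SR, hnRNP and core spliceosome genes 4 of 68 lie past 2-fold, whereas 16 of 27 target transcripts are higher and 2 lower. Over all genes past the filter, 21.2% are higher and 15.9% lower.

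Transcripts known as splicing or binding targets of these proteins were mostly higher in Cipc scko cells at the level of the whole gene. Of 29 such genes, 27 passed the filter, 16 of them higher and 2 lower. Their median log2 ratio was 2.06, against 0.01 for all genes past the filter, of which 21.2% were higher and 15.9% lower. Cacna1s, Cacna1c, Dmd and Trdn passed it through Cipc scko only, and so could only show a higher level. The targets are largely genes of differentiated muscle. The markers of differentiating myocytes summed to 15386.1 CPM in Cipc scko cells, against 33.5 CPM in Cipc flox/flox cells. The part of that difference in the target counts was not tested.

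Among targets of RBM20, 4 of 6 were higher and 1 lower. Titin (Ttn), the giant spring of the sarcomere, stood at 327.3 CPM in Cipc scko cells and 78.7 CPM in Cipc flox/flox cells (log2 ratio 2.06, 1.97 to 2.14). The Z-disc gene Ldb3 had a log2 ratio of 3.57 and Trdn, of the calcium release complex, of 4.43. Camk2d, a calcium-dependent kinase, was lower at -1.10 (-1.28 to -0.93), and the Z-disc gene Pdlim5 stood at -0.37. Ryr2 was not analysed here. Cacna1c, a calcium channel gene, had 28 counts in Cipc scko cells, against 0 in Cipc flox/flox cells. Against the 3-count floor Cacna1c was 9.84-fold higher, with a counting interval that began at a log2 ratio of 2.90.

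Among targets of MBNL and CELF proteins, 6 of 9 were higher and 1 lower. Troponin T genes Tnnt3 and Tnnt2, of fast and of cardiac and immature muscle, had log2 ratios of 7.28 and 5.02. The calcium pump gene Atp2a1 stood at 600.3 CPM in Cipc scko cells and 11.2 CPM in Cipc flox/flox cells (5.74, 5.53 to 5.96), and the calcium release channel gene Ryr1 had a ratio of 3.39. Cacna1s, the voltage sensor of excitation-contraction coupling, had 3761 counts in Cipc scko cells, against 0 in Cipc flox/flox cells. Against the 3-count floor Cacna1s was 1321.7-fold higher, with a counting interval that began at a log2 ratio of 10.07. Dmd, which encodes dystrophin, had 28 counts in Cipc scko cells, against 0 in Cipc flox/flox cells. It was 9.84-fold higher against the floor, with an interval that began at 2.90. Nfix, a transcription factor gene, was lower at -1.01 (-1.14 to -0.89), but lay under 2-fold with upper quartile factors (-0.97), which left 0 lower genes in the list. Bin1 and the insulin receptor gene Insr, at 0.71 and 0.33, stayed under 2-fold. The chloride channel gene Clcn1, whose misspliced form is known from myotonic dystrophy, had 2 counts in Cipc scko cells, against 1 in Cipc flox/flox cells, and did not pass the filter.

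Targets of the other proteins split. Both RBFOX targets were higher, Mef2d at 286.8 CPM in Cipc scko cells and 116.7 CPM in Cipc flox/flox cells, 2.46-fold higher, and the actin regulator Enah at a log2 ratio of 5.67 (5.42 to 5.94). Of 5 PTBP1 targets, the tropomyosin genes Tpm1 and Tpm2 were higher at 1.78 and 2.88, while Actn1 (0.67), Ptbp2 (-0.26) and the pyruvate kinase gene Pkm (-0.31) lay under 2-fold. Of 5 messenger RNAs bound or spliced by RBM24 or RBM38, myogenin (Myog) and Cdkn1a were higher, at 9.77 (9.40 to 10.20) and 2.29 (2.25 to 2.33). Naca, Fxr1 and Coro6, whose exons RBM24 is known to act on, had ratios of 0.60, 0.42 and 0.39, all under 2-fold. Rbm24 was at 0 counts in the same Cipc flox/flox library in which Myog had 53 counts.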

How the data were processed

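RNA-seq of 1 Cipc scko and 1 Cipc flox/flox library was used. Per the file headers, the authors' deposited values are counts per Ensembl gene (whole numbers) and FPKM. CASAVA, HISAT2 2.0.4, StringTie 1.3.0 and GRCm38 stand in the submitters' processing notes without their roles. Annotation, counting tool, strand setting and filters are not given in the sources used. FPKM ratios equalled ratios of counts over totals, within 0.9996 to 1.000 over 13719 genes, so FPKM is no second measurement.

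Symbols, positions and exon lengths came from GENCODE vM21 (GRCm38), which named 16116 of 16190 genes. Counts were scaled by TMM (edgeR 4.0.16, R 4.3.3). The filter kept 12874 genes that reached 1 CPM in either library and 20 counts over both. Log2 ratios used a prior count of 0.5, and intervals are exact binomial (Clopper-Pearson, 95%). They cover counting error only, and treat reads as independent molecules, which they are not, so they can be too narrow. Genes at 0 got a bound against 3 counts in that library (0.187 CPM in Cipc scko cells, 0.177 CPM in Cipc flox/flox cells). Higher or lower means at least 2-fold with an interval that leaves out equality. With 1 library per genotype no test was possible.

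The members and lists were chosen with earlier results of these data known. Besides the members, the text names Cipc and other state markers, the highest and lowest gene of each list at a CPM of at least 5, every target past the filter and the 3 genes nearest to the highest and lowest member. Celf5, Khdrbs3, Rbpms2, Hnrnpm, Ptbp3, Clcn1, Xist, the single markers of other cell types, Cd34, Itga7 and the genes that overlap members were named after their values were seen. Copies were searched with BLAST+ 2.17.0 at 95% identity over 80% of the shorter transcript. The search covered 20 genes, the members and the highest and lowest gene of each list of splicing factors. The planned comparison of protein sequences was not made, as no protein table was used here. Alternatives were other scalings (totals, DESeq2 1.42.0 size factors, upper quartile), filters, prior counts, FPKM and fold limits.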

Additional observations from a re-analysis of the deposited data

How the results depend on the processing

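No paired analysis was possible because each genotype has 1 library, and for the same reason no replicate could be left out. The 2 higher and 3 lower members were the same in number under every other scaling, both other filters and a prior count of 5. A 4-fold limit left 1 member higher and 2 lower, against 1608 (12.5%) and 860 (6.68%) of all 12874 genes past the filter. A 1.5-fold limit gave 3 and 3, with 3318 of these 12874 genes lower. FPKM with a pseudocount of 1 gave 2 and 2, with 1479 of all genes higher. All-gene counts in the other direction are not given here for the 1.5-fold and FPKM settings, so their member counts are not read against all genes. Fold limits and pseudocounts set these counts by construction. With library totals as the scale, the all-gene median shifted by -0.14, and with it Celf1 to -0.0444, Celf2 to -0.44, Mbnl2 to -0.52, Ptbp1 to -1.49, Rbfox2 to 0.71 and Rbm20 to -0.29. FPKM with a pseudocount of 0.1 gave Celf1 -0.0437, Mbnl2 -0.52, Mbnl3 -2.76, Ptbp1 -1.48, Rbfox2 0.70, Rbm20 -0.28 and Rbm24 9.85. With a pseudocount of 1 it gave Celf1 -0.0384, Mbnl1 -1.21, Mbnl2 -0.50, Mbnl3 -0.92, Rbfox2 0.68, Rbm24 6.55 and Rbm38 1.05, so that Mbnl3 was no longer past 2-fold. A prior count of 5 gave Rbm24 10.01. The value of Rbm24, at 0 in Cipc flox/flox cells, depends on what is added to 0. The median of the other splicing regulators, near 0, turned to 0.0328 with upper quartile factors and to 0.0092 with no filter. Of 910 alternative values of other named genes, 0 reversed a difference of at least 2-fold, and 275 left the counting interval. Beside Mbnl3, 6 other named genes past 2-fold lay under it in an alternative: Hnrnph3 with totals (0.99) and both FPKM scales (0.96 and 0.76), Nfix with upper quartile factors (-0.97), Camk2d with a pseudocount of 1 (-0.53), and the low genes Celf5, Cacna1c and Dmd with both pseudocounts (-0.77 and -0.13, 0.60 and 0.07, 0.66 and 0.08). Core spliceosome genes lower numbered 2 with totals, DESeq2 size factors or FPKM and a pseudocount of 0.1, against 1. Depth limits Mbnl3, with 13 counts in Cipc scko cells.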

Other observations

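Genes named Rbm, Rbms or Rbmx, a name shared by many proteins with an RNA recognition motif, were looked up after the other values were seen. Of 40 such protein-coding genes past the filter, 4 were higher in Cipc scko cells and 2 lower, against 21.2% and 15.9% of all genes. The median log2 ratio of the 40 was -0.15. Besides Rbm24 and Rbm38, the higher ones were Rbms3, at 46.9 CPM in Cipc scko cells and 5.02 CPM in Cipc flox/flox cells (3.22, 2.90 to 3.56), and Rbm43, with 145 counts in Cipc scko cells and 23 in Cipc flox/flox cells (2.71, 2.09 to 3.44). The lower ones were Rbm15, which takes part in N6-methyladenosine marking of RNA, at 20.2 CPM in Cipc scko cells and 47.0 CPM in Cipc flox/flox cells (-1.22, -1.41 to -1.03), and Rbm47, with 30 counts in Cipc scko cells and 82 in Cipc flox/flox cells (-1.36, -2.03 to -0.76). The other 34, among them Rbm20, lay under 2-fold.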
